A study of Mus musculus with 24 samples.

Results

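The difference between 2 genetic backgrounds in the quadriceps response to Lama2-CMD was examined, as the CMD effect in 87 minus the CMD effect in 67. Members were chosen by label alone: the 12 of 24 libraries made from 87 CMD, 87 WT, 67 CMD and 67 WT mice, with 3 libraries in each of the 4 groups and all listed genes. Lama2-CMD is a mouse model of laminin-α2-deficient congenital muscular dystrophy. The series profiled left quadriceps muscle by bulk RNA sequencing at 25 weeks of age in mutant and WT mice on 4 backgrounds, and asked how background modifies the disease. The labels name the strains CMD-87 and CMD-67 and the design calls the backgrounds BXD-87 and BXD-67, from the BXD family of recombinant inbred lines derived from C57BL/6J and DBA/2J. CMD mice carried a Lama2 mutation whose allele the labels do not name, and WT mice were labelled healthy. The 87 CMD group held 1 female (library 16) and 2 males (libraries 17 and 18), and the 87 WT group 1 male (library 13) and 2 females (libraries 14 and 15). The 67 CMD group held 3 females (libraries 10, 11 and 12), and the 67 WT group 1 male (library 7) and 2 females (libraries 8 and 9). Per-library values are given in this order of libraries throughout. The labels number the samples without saying how mice were related or whether each library came from its own mouse, so p-values measure the spread between these samples.

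Laminin-211, whose α2 chain is encoded by Lama2, links the basement membrane around each muscle fibre to dystroglycan and integrin α7β1 on the fibre surface. Without it fibres degenerate, and macrophages and fibro-adipogenic progenitors, the mesenchymal cells that make most interstitial collagen, expand in the muscle. The interstitial matrix of fibrillar collagens, fibrillin microfibrils and fibronectin thickens as fibrosis develops, and in mice the course of several muscular dystrophies is known to depend on the strain.

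Lama2 (ENSMUSG00000019899) was detected in all 12 libraries. Its level was 12.8, 18.8 and 16.3 CPM (TMM-scaled counts relative to library size) in 87 CMD libraries, against 34.6, 27.2 and 26.9 CPM in 87 WT libraries. It was 28.6, 19.9 and 33.2 CPM in 67 CMD libraries, against 27.7, 26.8 and 23.6 CPM in 67 WT libraries. All 87 CMD libraries lay below all 87 WT libraries, whereas the 67 groups overlapped. In the model the CMD effect on Lama2 was a log2 fold change of -0.998 ± 0.19 in 87 and 0.17 ± 0.18 in 67, and the difference of -1.17 ± 0.27 (SE, adjusted p = 0.0744) did not pass the threshold. A transcript level does not check the mutation, because the allele and its effect on the message are not given. Libraries held 35991630 to 51715975 total exon reads. Y-linked reads matched the labelled sex in all 12, with 4184 to 5407 reads in libraries labelled male and 2 to 10 in those labelled female. Library 16 (87 CMD) stood apart. Its mean correlation with the other libraries of its group was 0.941, against 0.957 to 0.978 for the other 11. Values without it are given beside many of the results, though not beside every gene. Of the 132 genes called for the difference, 9 also passed without library 16, and these are named below.

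The promoters of 3 genes whose CMD effect was lower in 87, both with and without library 16, are printed for reference. No expression result below rests on these sequences. They are the 250 bases before the annotated start from RefSeq (GRCm38.p6), read 5′ to 3′ on the gene's strand, with GC boxes (GGGCGG on the printed strand) in capitals. Sh3pxd2b lies at chr11:32347590-32347839 (plus strand), Fbn1 at chr2:125506439-125506688 (minus strand) and Ctsk at chr3:95498960-95499209 (plus strand).
Sh3pxd2b: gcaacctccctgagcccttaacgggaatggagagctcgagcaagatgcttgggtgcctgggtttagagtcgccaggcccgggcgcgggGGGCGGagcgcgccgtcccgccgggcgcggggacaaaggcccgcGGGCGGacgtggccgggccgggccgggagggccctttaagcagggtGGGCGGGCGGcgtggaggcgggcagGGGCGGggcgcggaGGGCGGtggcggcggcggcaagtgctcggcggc
Fbn1: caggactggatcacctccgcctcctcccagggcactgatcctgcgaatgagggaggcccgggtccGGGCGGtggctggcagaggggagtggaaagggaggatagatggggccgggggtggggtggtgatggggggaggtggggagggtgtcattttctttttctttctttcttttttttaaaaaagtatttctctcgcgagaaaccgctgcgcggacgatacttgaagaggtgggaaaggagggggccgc
Ctsk: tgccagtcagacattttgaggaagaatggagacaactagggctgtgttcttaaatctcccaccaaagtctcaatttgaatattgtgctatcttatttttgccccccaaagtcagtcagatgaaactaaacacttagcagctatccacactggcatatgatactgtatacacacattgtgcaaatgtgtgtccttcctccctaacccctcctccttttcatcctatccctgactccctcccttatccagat
The Sh3pxd2b promoter held 6 matches to the GC box, counting overlapping matches, the Fbn1 promoter 1 and the Ctsk promoter 0. Searched on both strands, a GC box was present in 54.4% of the 90 promoters with an entry among the 126 genes whose CMD effect was lower in 87, against 57.7% of the 11049 promoters of tested genes and 32.9% of all 27025 promoters. The AP-1 sequence TGANTCA was present in 6.67% of the 90, against 4.47% of tested genes and 6.87% of all. The TATA box TATAAA was present in 15.6% of the 90, against 6.81% of tested genes and 12.97% of all, and the CCAAT box CCAAT in 33.3%, against 35.99% of tested genes and 34.5% of all. None of these 3 motifs was present in the printed promoters, and a match is a description of the letters, not a site.

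Most of the genes that passed in edgeR had a lower CMD effect in 87 than in 67, a split that was less uneven in DESeq2. Of 14267 genes tested, 132 (0.925%) differed, and 126 (0.883%) had a CMD effect lower in 87 than in 67 and 6 (0.0421%) had one higher in 87, at an adjusted p under 0.05 in edgeR's quasi-likelihood test with Benjamini-Hochberg adjustment and sex as a term. Within each background the CMD effect was broad: 2714 genes changed in 87, 1498 raised (10.5%) and 1216 lowered (8.52%), and 2665 changed in 67, 1622 raised (11.4%) and 1043 lowered (7.31%). Among the 126 genes, 49 were lowered in 87 and raised in 67. Another 54 were raised in 67 and not called in 87, and 23 were lowered in 87 and not called in 67. Over all 14267 tested genes these patterns held 61, 1042 and 725 genes in that order. For the 126 the median log2 fold change, CMD over WT, was -0.87 in 87 and 1.26 in 67. Their median difference was -2.20, beside -0.01 over all tested genes. In 97 of them all 67 CMD libraries lay above all 67 WT libraries, a pattern shown by 23.5% of all tested genes. In 53 all 87 CMD libraries lay below all 87 WT libraries (15.3% of all tested genes), and in 73 the 87 groups overlapped. The 126 were called as lower in 87 in these same libraries, so these medians and counts are not independent of that choice.

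The number of calls and their split by direction depended on the test, the sex term and single libraries. Without a sex term no gene passed (smallest adjusted p 0.122, 1588 genes at an unadjusted p under 0.05), and DESeq2 with the sex term called 1269, 500 higher and 769 lower in 87, so that 39.4% were higher, against 4.55% of the 132. At an unadjusted p under 0.05 in edgeR, 1308 genes (9.17%) were higher in 87 and 1695 (11.9%) lower. Without library 16, 11 genes passed, of which 9 (0.0620% of those tested) were lower in 87 and 2 (0.0138%) higher, and 9 were shared with the 132, so every other gene of the 132 lost its call. Within 87, 835 genes (5.76%) were then raised and 565 (3.89%) lowered. As library 16 was the only female of 87 CMD, fits without it set male 87 CMD libraries against female 67 CMD libraries. Their sex term rests on the WT groups alone. Leaving out library 17 or 18 (87 CMD) gave 57 and 486 calls, and leaving out libraries 13, 14 or 15 (87 WT) gave 18, 31 and 18. Leaving out libraries 10, 11 or 12 (67 CMD) gave 1, 15 and 37 calls, and leaving out libraries 7, 8 or 9 (67 WT) gave 57, 0 and 11. All 132 genes kept the sign of their difference in these fits, and without library 16 all 132 had an unadjusted p under 0.05, with a median of -1.92 over the 126. The 132 were chosen by their p in the same libraries, so these kept signs and p-values are not an independent check.

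**Figure D1:**
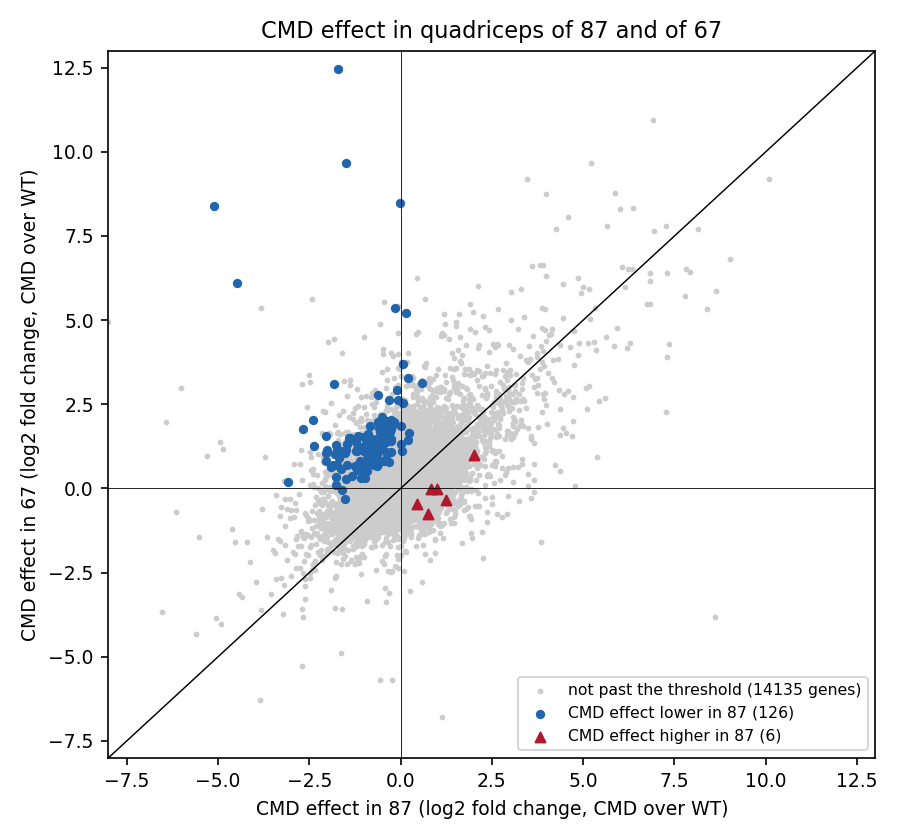
CMD effect in 87 (horizontal axis) and in 67 (vertical axis) for each tested gene, as log2 fold changes of CMD over WT; the diagonal marks equal effects and 2 genes lie outside the axes. Blue circles are the 126 genes whose effect was lower in 87, most of them left of or near zero in 87 and above zero in 67, and red triangles the 6 whose effect was higher in 87.

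The genes that passed both with and without library 16 encode matrix proteins, a protease, adaptors and an enzyme. These 9 genes, all with a CMD effect lower in 87, were Sh3pxd2b, Fbn1, Mfap5, Ctsk, Col5a2, Shc2, Fbln7, Hmcn2 and Nos1. In 7 of them all 67 CMD libraries lay above all 67 WT libraries (23.5% of all tested genes), the exceptions being Shc2 and Nos1. In 3 of them (Fbn1, Shc2 and Nos1) all 87 CMD libraries lay below all 87 WT libraries (15.3%). The 9 were chosen by their p in these libraries, so these counts are not independent of that choice. Fbn1 (ENSMUSG00000027204), which encodes fibrillin-1, the backbone of extracellular microfibrils, had 6.57, 11.1 and 19.7 CPM in 87 CMD libraries, against 50.04, 31.8 and 36.3 CPM in 87 WT libraries. In 67 it had 39.9, 35.3 and 35.7 CPM in CMD libraries, against 30.9, 13.8 and 20.02 CPM in WT libraries. The groups did not overlap in either background and were ordered in opposite ways. The log2 CMD effect was -2.03 ± 0.25 in 87 and 1.13 ± 0.24 in 67, a difference of -3.16 ± 0.36 (SE, adjusted p = 0.0149), with a 95% interval of -3.95 to -2.36, and -2.85 without library 16.

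Mfap5 (ENSMUSG00000030116), a microfibril-associated glycoprotein and a marker of fibro-adipogenic progenitors, had 11.3, 10.8 and 16.2 CPM in 87 CMD libraries, against 14.9, 9.86 and 8.73 CPM in 87 WT libraries. In 67 it had 38.9, 28.5 and 37.7 CPM in CMD libraries, against 8.28, 5.59 and 6.602 CPM in WT libraries. The 67 CMD libraries were high and the other 9 were low and overlapping between genotypes. Its difference was -2.46 ± 0.29 (SE, adjusted p = 0.0149) on the log2 scale, and -2.60 without library 16. Sh3pxd2b (ENSMUSG00000040711), which encodes an adaptor of podosomes, the matrix-degrading adhesions of migrating cells, followed the same order. It had 5.82, 7.83 and 6.86 CPM in 87 CMD libraries, against 11.4, 6.795 and 7.96 CPM in 87 WT libraries. It had 11.5, 16.03 and 12.1 CPM in 67 CMD libraries, against 4.91, 3.38 and 3.301 CPM in 67 WT libraries. Only the 67 groups were separate, and the difference was -2.46 ± 0.26 (SE, adjusted p = 0.0149), with -2.58 without library 16.

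Ctsk (ENSMUSG00000028111), which encodes the collagen-degrading protease cathepsin K, had 2.79, 5.07 and 5.44 CPM in 87 CMD libraries, against 7.12, 2.74 and 3.37 CPM in 87 WT libraries. In 67 it had 16.2, 15.8 and 12.2 CPM in CMD libraries, against 6.596, 4.13 and 3.27 CPM in WT libraries. The 67 CMD libraries stood above all others, and the difference was -2.31 ± 0.27 (SE, adjusted p = 0.0149), with -2.35 without library 16. Fbln7 (ENSMUSG00000027386), a fibulin of the extracellular matrix, and Hmcn2 (ENSMUSG00000055632), a hemicentin of the extracellular matrix, were also highest in 67 CMD muscle. Fbln7 had 1.81, 6.37 and 8.15 CPM in 87 CMD libraries, 5.99, 5.04 and 4.02 in 87 WT libraries, 20.98, 23.3 and 18.7 in 67 CMD libraries and 4.93, 4.103 and 3.35 in 67 WT libraries. Its difference was -2.97 ± 0.49 (SE, adjusted p = 0.0302), or -2.18 without library 16. Hmcn2 had 16.9, 36.7 and 35.1 CPM in 87 CMD libraries, 31.4, 34.99 and 31.8 in 87 WT libraries, 88.3, 87.5 and 90.8 in 67 CMD libraries and 24.3, 30.02 and 28.3 in 67 WT libraries. Its difference was -2.01 ± 0.36 (SE, adjusted p = 0.0365), or -1.36 without library 16, and in both genes the 87 groups overlapped.

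Nos1 and Shc2 differed through 87 instead. Nos1 (ENSMUSG00000029361) encodes neuronal nitric oxide synthase, which in muscle is held at the fibre membrane by the dystrophin complex. It had 48.1, 42.2 and 30.02 CPM in 87 CMD libraries, against 141, 137 and 121 CPM in 87 WT libraries, a fall with no overlap. In 67 the groups overlapped, at 67.4, 67.2 and 86.5 CPM in CMD libraries, against 102, 61.3 and 54.6 CPM in WT libraries. The log2 CMD effect was -1.77 ± 0.25 in 87 and 0.10 ± 0.25 in 67, and the difference was -1.88 ± 0.37 (SE, adjusted p = 0.0447), or -2.41 without library 16. Shc2 (ENSMUSG00000020312), an adaptor of receptor tyrosine kinases, had 0.7503, 0.705 and 1.14 CPM in 87 CMD libraries, against 9.88, 4.61 and 4.12 CPM in 87 WT libraries. In 67 it had 3.48, 3.07 and 2.28 CPM in CMD libraries, against 6.83, 2.105 and 2.35 CPM in WT libraries. The 87 CMD libraries were the lowest of the 12, and the difference was -3.28 ± 0.46 (SE, adjusted p = 0.0223), or -3.84 without library 16.

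**Figure D2:**
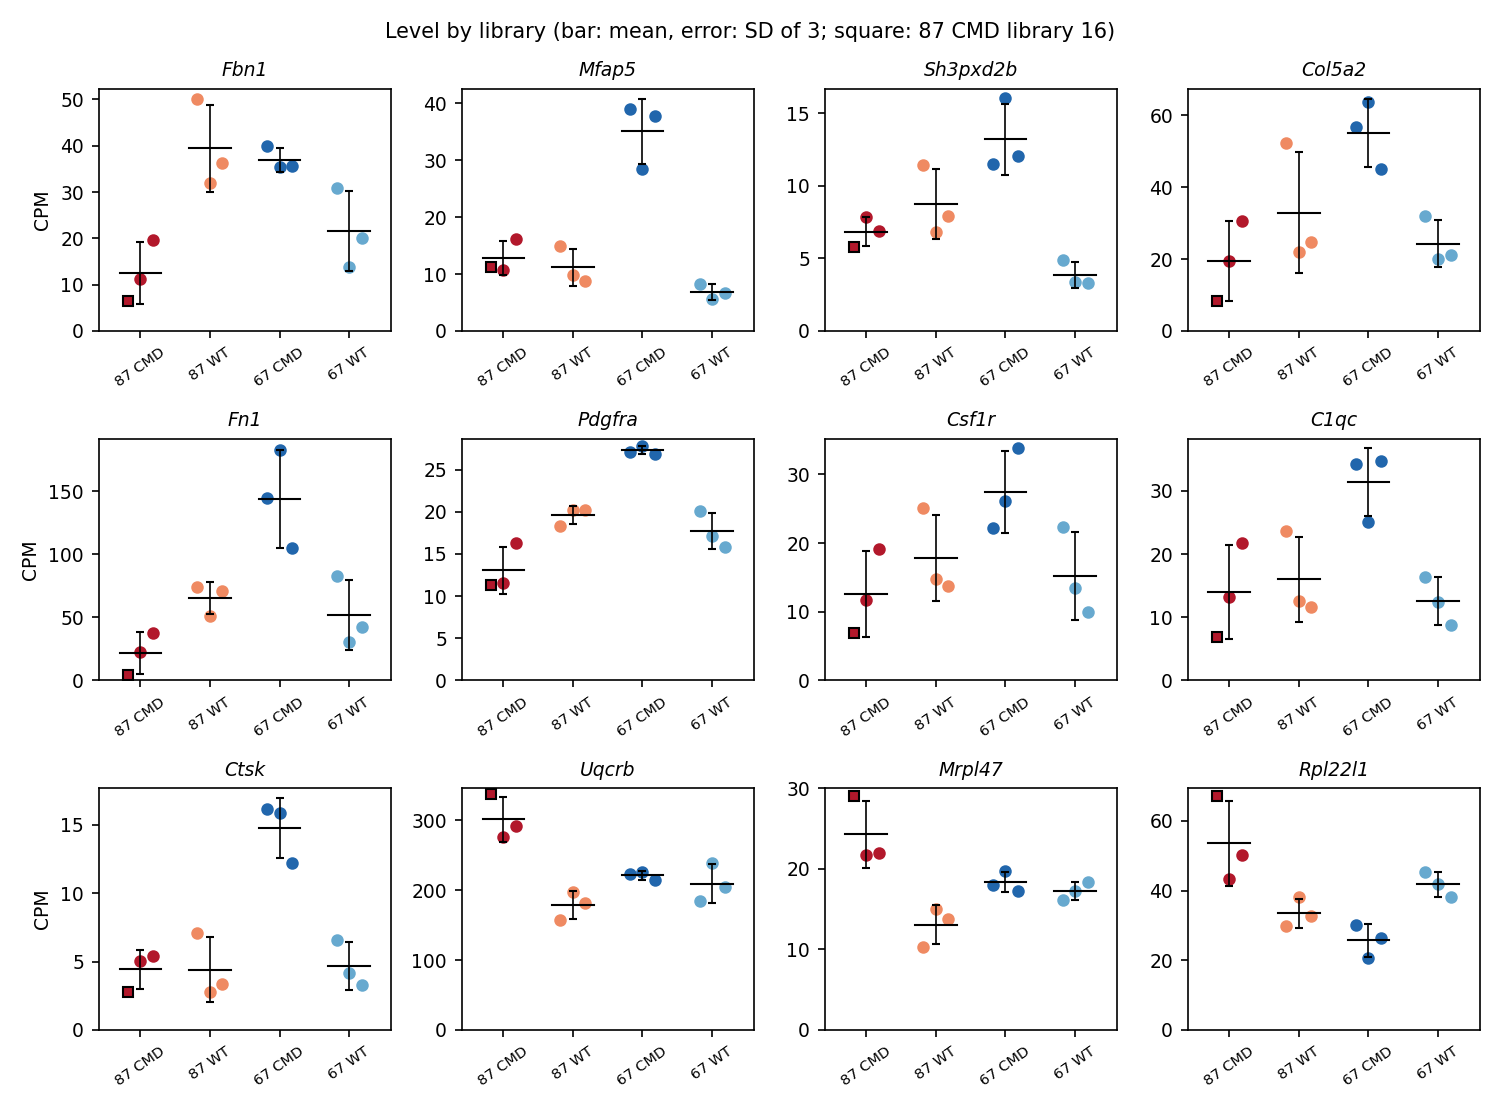
Levels in CPM of 12 genes by library in 87 CMD, 87 WT, 67 CMD and 67 WT muscle, with the mean as a bar and the SD of 3 libraries as error; squares mark library 16. Fbn1 was low in 87 CMD and high in 67 CMD libraries relative to WT, Mfap5, Sh3pxd2b and Ctsk were high in 67 CMD libraries, and Uqcrb and Mrpl47 were high in 87 CMD libraries.

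Part of the fibrillar matrix genes fell with CMD in 87, and more of them rose with CMD in 67. Of 25 genes for fibrillar collagens and their partners, 11 had a CMD effect lower in 87 and 0 had one higher, and all 25 differences were negative, with a median of -2.79 beside -0.01 over all genes. In 87, 12 of the 25 fell with CMD and 1 rose (Timp1), whereas in 67, 15 rose and 0 fell. Of all tested genes, 0.883% had a CMD effect lower in 87, 8.52% fell and 10.5% rose in 87, and 11.4% rose in 67. Without library 16, 6 of the 25 fell (3.89% of all tested genes) and 1 rose (5.76%) in 87. In that fit 20 rose in 67, beside 2110 of 14508 tested genes, against 1622 of 14267 with library 16. Of the 25, 2 passed as lower in 87 (0.0620%). The summed level of the 25 genes was 391, 1002 and 1549 CPM in 87 CMD libraries, against 2009, 1429.6 and 1424 CPM in 87 WT libraries. It was 2843, 3164 and 2048 CPM in 67 CMD libraries, against 1788, 1141 and 1178 CPM in 67 WT libraries. The 87 groups overlapped through library 18, library 16 was the lowest of all 12, and the 67 groups did not overlap. Without library 16 the median difference was -1.82, and at an unadjusted p under 0.05 the genes lower in 87 numbered 23 with library 16 and 23 without it, against 11.9% and 8.48% of all tested genes. Because these are whole-muscle samples, fewer cells of a type and less RNA per cell cannot be told apart.

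Fn1 (ENSMUSG00000026193), which encodes fibronectin, the provisional matrix on which collagen is laid down, had the most negative difference of the list together with Col14a1. It had 4.68, 22.2 and 37.8 CPM in 87 CMD libraries, against 74.5, 50.8 and 70.6 CPM in 87 WT libraries. It had 145, 183 and 105 CPM in 67 CMD libraries, against 82.8, 30.2 and 42.7 CPM in 67 WT libraries. The groups did not overlap in either background, and the difference was -4.43 ± 0.71 (SE, adjusted p = 0.0293), or -3.43 without library 16. Col5a2 (ENSMUSG00000026042) and Col5a1 (ENSMUSG00000026837) encode chains of collagen V, which nucleates collagen fibrils. Col5a2 had 8.33, 19.4 and 30.5 CPM in 87 CMD libraries, 52.3, 21.9 and 24.7 in 87 WT libraries, 56.7, 63.7 and 45.1 in 67 CMD libraries and 31.9, 20.01 and 21.1 in 67 WT libraries. The 67 groups were separate and the 87 groups overlapped. Its difference was -2.75 ± 0.35 (SE, adjusted p = 0.0211), and that of Col5a1 was -2.77 ± 0.52 (SE, adjusted p = 0.0392). Without library 16 Col5a2 passed, and Fn1 and Col5a1 did not.

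The other members that passed included crosslinkers, proteases and small matrix proteins, and none of those named here passed without library 16. The lysyl oxidase family members Loxl1 (ENSMUSG00000032334) and Loxl2 (ENSMUSG00000034205), which crosslink elastin and collagen, differed by -2.92 ± 0.49 (SE, adjusted p = 0.0345) and -2.79 ± 0.46 (SE, adjusted p = 0.0302). Mmp2 (ENSMUSG00000031740), a gelatinase, and Mmp14 (ENSMUSG00000000957), the membrane protease that activates its product, differed by -2.07 ± 0.31 (SE, adjusted p = 0.0230) and -1.79 ± 0.30 (SE, adjusted p = 0.0339), with CMD effects in 67 of 1.60 ± 0.21 and 1.32 ± 0.20 and no called change in 87. Collagen XIV (Col14a1, ENSMUSG00000022371) had 0.336, 2.71 and 4.11 CPM in 87 CMD libraries, 10.3, 10.4 and 12.9 in 87 WT libraries, 39.8, 30.5 and 17.5 in 67 CMD libraries and 11.1, 11.5 and 7.896 in 67 WT libraries, separate in both backgrounds in opposite directions, with a difference of -4.43 ± 0.90 (SE, adjusted p = 0.04997), or -3.22 without library 16. Sparc (ENSMUSG00000018593), a collagen-binding matricellular protein, and Dcn (ENSMUSG00000019929), the proteoglycan decorin, differed by -1.92 ± 0.38 (SE, adjusted p = 0.0495) and -1.43 ± 0.28 (SE, adjusted p = 0.0476), and both fell in 87 without a called rise in 67, falls that were not called without library 16. Col1a1, Col1a2, Col3a1 and the collagen VI genes had negative differences that did not pass. Timp1 (ENSMUSG00000001131), a metalloproteinase inhibitor, was raised in both backgrounds, with CMD effects of 3.02 ± 0.53 in 87 and 5.83 ± 0.62 in 67 and a difference of -2.80 ± 0.83 (SE, adjusted p = 0.109).

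Markers of fibro-adipogenic progenitors also had CMD effects lower in 87 than in 67. Of 15 markers, 6 had a CMD effect lower in 87 (0.883% of all tested genes). All 15 differences were negative, with a median of -1.87 (-1.23 without library 16). In 87, 9 fell (8.52% of all tested genes) and 0 rose with CMD, whereas in 67, 8 rose (11.4%) and 0 fell. Without library 16, 5 fell (3.89%) and 0 rose in 87, and 2 passed as lower in 87 (0.0620%). The falls of Pdgfra, Gsn, Thy1 and Dpt were then no longer called. The summed level of the 15 markers was 550.01, 845 and 1228 CPM in 87 CMD libraries, against 1636, 1389 and 1143 CPM in 87 WT libraries. It was 1759, 1649 and 1656 CPM in 67 CMD libraries, against 1567, 1179 and 979 CPM in 67 WT libraries. The 67 CMD libraries lay above all 67 WT libraries, and the 87 groups overlapped through library 18. Pdgfra (ENSMUSG00000029231), the receptor that defines these cells, had 11.3, 11.5 and 16.3 CPM in 87 CMD libraries, against 18.3, 20.2 and 20.2 CPM in 87 WT libraries. It had 27.1, 27.8 and 26.9 CPM in 67 CMD libraries, against 20.1, 17.2 and 15.8 CPM in 67 WT libraries. The groups were separate in both backgrounds and in opposite directions, and the difference was -1.32 ± 0.24 (SE, adjusted p = 0.0365). Pi16 (ENSMUSG00000024011), a marker of a progenitor-like fibroblast state, differed by -3.05 ± 0.52 (SE, adjusted p = 0.0345), Dpt (ENSMUSG00000026574), the matrix protein dermatopontin, by -2.88 ± 0.52 (SE, adjusted p = 0.0365), and Gsn (ENSMUSG00000026879), the actin-severing protein gelsolin, by -1.56 ± 0.28 (SE, adjusted p = 0.0365). Ly6a, Smoc2, Pdgfrb, Osr1 and Cxcl14 had smaller differences, between -0.93 and -0.45, that did not pass. This list holds the matrix genes Fbn1, Mfap5 and Dpt, so it is not independent of the matrix results. How far the matrix genes moved with this marker level was not tested.

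Most macrophage and complement genes rose in 67 CMD muscle, and few did in 87. Of 19 macrophage markers, 5 had a CMD effect lower in 87 (0.883% of all tested genes). Negative differences numbered 18, and the median was -2.10 (-1.80 without library 16). In 67, 14 of the 19 rose (11.4% of all tested genes) and 0 fell with CMD. In 87, 3 rose (Cd68, Lgals3 and Spp1, beside 10.5%) and 3 fell (Csf1r, Adgre1 and Mrc1, beside 8.52%). Without library 16, 1 rose in 87 (Spp1, beside 5.76%) and 0 fell, and 17 rose in 67 (beside 2110 of 14508 tested genes). Only Ctsk, also a member of the bone list, then passed for the difference, and Csf1r, Adgre1, Lyz2 and C1qa did not. The summed level of the 19 markers was 154, 145 and 261 CPM in 87 CMD libraries, against 227, 126 and 137 CPM in 87 WT libraries. It was 361, 260.4 and 399 CPM in 67 CMD libraries, against 153, 121 and 95.8 CPM in 67 WT libraries. The 67 groups were separate and the 87 groups overlapped. Csf1r (ENSMUSG00000024621), the receptor for the macrophage growth factor CSF1, had 6.88, 11.7 and 19.2 CPM in 87 CMD libraries, 25.1, 14.7 and 13.8 in 87 WT libraries, 22.1, 26.2 and 33.8 in 67 CMD libraries and 22.4, 13.4 and 9.98 in 67 WT libraries. Both pairs of groups overlapped in these values, library 7 and library 13, the males of the WT groups, being the highest of their groups. With sex in the model its difference was -2.10 ± 0.34 (SE, adjusted p = 0.0293). Adgre1 (ENSMUSG00000004730), which encodes the macrophage antigen F4/80, differed by -2.54 ± 0.46 (SE, adjusted p = 0.0365) and Lyz2 (ENSMUSG00000069516), lysozyme, by -2.27 ± 0.44 (SE, adjusted p = 0.0432). Cd68 and Gpnmb, a lysosomal protein and a membrane glycoprotein of phagocytes, had differences of 0.37 and -0.28 that did not pass.

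Of 14 complement genes, 5 had a CMD effect lower in 87 (0.883% of all tested genes). All 14 differences were negative and the median was -1.86 (-1.90 without library 16). In 67, 11 rose (11.4% of all tested genes) and 0 fell. In 87, 1 rose (Cfd, beside 10.5%) and 2 fell (Serping1 and C3, beside 8.52%), calls that were lost without library 16. In that fit 0 passed for the difference and 12 were lower in 87 at an unadjusted p under 0.05 (8.48% of all tested genes). C1qa (ENSMUSG00000036887), C1qb (ENSMUSG00000036905) and C1qc (ENSMUSG00000036896) encode the chains of C1q, the recognition unit of the classical pathway, which macrophages make. C1qc had 6.91, 13.3 and 21.7 CPM in 87 CMD libraries, against 23.7, 12.6 and 11.6 CPM in 87 WT libraries, and 34.3, 25.2 and 34.7 CPM in 67 CMD libraries, against 16.4, 12.4 and 8.85 CPM in 67 WT libraries. The 67 groups were separate and the 87 groups overlapped. The differences were -2.22 ± 0.35 (SE, adjusted p = 0.0293) for C1qc, -1.65 ± 0.31 (SE, adjusted p = 0.0374) for C1qb and -1.95 ± 0.39 (SE, adjusted p = 0.04997) for C1qa. C3ar1 (ENSMUSG00000040552), the receptor for the C3a fragment, differed by -2.63 ± 0.50 (SE, adjusted p = 0.0413), and Serping1 (ENSMUSG00000023224), the inhibitor of the C1 proteases, by -1.78 ± 0.28 (SE, adjusted p = 0.0293). The macrophage list also holds C1qa, so these lists are not independent.

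**Figure D3:**
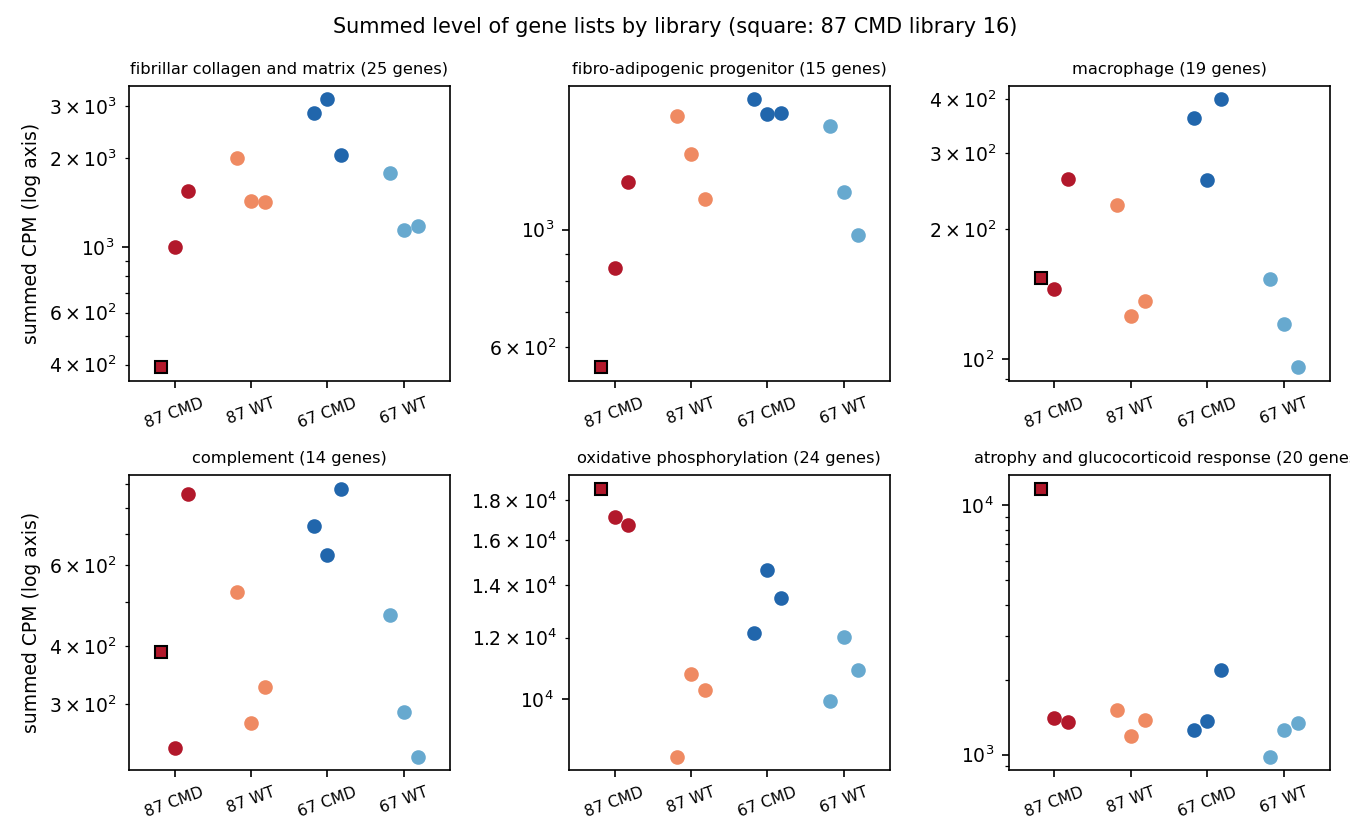
Summed CPM of 6 gene lists by library on log axes in 87 CMD, 87 WT, 67 CMD and 67 WT muscle; squares mark library 16. The fibrillar matrix sum was highest in 67 CMD libraries, the macrophage sum was higher in 67 CMD than in 67 WT libraries, the oxidative phosphorylation sum was highest in 87 CMD libraries, and the atrophy and glucocorticoid sum of library 16 lay above all others.

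Some basement membrane genes also had a CMD effect lower in 87. Of 24 tested genes for basement membrane components and laminin receptors, 4 had a CMD effect lower in 87 and 0 higher, with a median of -0.79 (-0.80 without library 16). In 87, 8 fell and 0 rose, whereas in 67, 7 rose and 0 fell. Of all tested genes, 0.883% had a CMD effect lower in 87, 8.52% fell in 87 and 11.4% rose in 67. Without library 16, 5 fell (3.89% of all tested genes) and 0 rose in 87. In that fit 0 passed for the difference, with 12 lower in 87 at an unadjusted p under 0.05 (8.48%). Col4a1 (ENSMUSG00000031502) and Col4a2 (ENSMUSG00000031503), the collagen IV network of every basement membrane, differed by -1.69 ± 0.32 (SE, adjusted p = 0.0413) and -1.56 ± 0.30 (SE, adjusted p = 0.0432), and Hspg2 (ENSMUSG00000028763), the proteoglycan perlecan, by -1.78 ± 0.32 (SE, adjusted p = 0.03699). Col18a1 (ENSMUSG00000001435), the collagen from which endostatin is cleaved, had 3.08, 7.24 and 7.35 CPM in 87 CMD libraries, against 25.6, 12.1 and 11.5 CPM in 87 WT libraries. It had 12.1, 20.2 and 9.89 CPM in 67 CMD libraries, against 10.98, 7.67 and 7.53 CPM in 67 WT libraries. The 87 groups were separate, the 67 groups overlapped through the male library 7, and the difference was -2.82 ± 0.38 (SE, adjusted p = 0.0223). The laminin chains Lama4 (ENSMUSG00000019846) and Lama5 (ENSMUSG00000015647), which occur in the basement membranes of vessels, differed by -1.27 ± 0.32 (SE, adjusted p = 0.0825) and 0.45 ± 0.45 (SE, adjusted p = 0.592), and Lama1 had too few reads to test.

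Other called genes included receptors and calcium-binding proteins of stromal and immune cells, and those named here did not pass without library 16. Axl (ENSMUSG00000002602), a receptor tyrosine kinase for the ligand GAS6, had 16.4, 19.4 and 25.3 CPM in 87 CMD libraries, 32.6, 33.4 and 28.2 in 87 WT libraries, 48.9, 46.1 and 47.9 in 67 CMD libraries and 33.9, 24.1 and 21.4 in 67 WT libraries. Both pairs of groups were separate in opposite directions, and the difference was -1.76 ± 0.23 (SE, adjusted p = 0.0223). Vcan (ENSMUSG00000021614), the proteoglycan versican, differed by -2.92 ± 0.41 (SE, adjusted p = 0.0223) and Medag (ENSMUSG00000029659), a gene linked to adipogenesis, by -1.73 ± 0.23 (SE, adjusted p = 0.0223). S100a4 (ENSMUSG00000001020), a calcium-binding protein of fibroblasts and myeloid cells, had 5.46, 11.9 and 13.1 CPM in 87 CMD libraries, 6.84, 6.42 and 4.18 in 87 WT libraries, 34.4, 30.8 and 28.3 in 67 CMD libraries and 3.84, 3.596 and 4.33 in 67 WT libraries. The 67 CMD libraries were the highest of the 12, and the difference was -2.56 ± 0.38 (SE, adjusted p = 0.02298). S100a6 (ENSMUSG00000001025), a related protein, differed by -2.13 ± 0.31 (SE, adjusted p = 0.02298). Sfrp4 (ENSMUSG00000021319), a secreted Wnt antagonist, had 0.362, 2.28 and 1.55 CPM in 87 CMD libraries, 4.42, 3.14 and 2.47 in 87 WT libraries, 25.9, 21.7 and 4.402 in 67 CMD libraries and 3.97, 2.77 and 1.53 in 67 WT libraries, with a difference of -4.92 ± 0.93 (SE, adjusted p = 0.041).

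Cdkn2a (ENSMUSG00000044303), whose products p16INK4a and ARF arrest the cell cycle and mark senescent cells, was near the lower end of detection outside 67 CMD muscle. It had 0.0776, 0.3795 and 0.367 CPM in 87 CMD libraries, 0.484, 0 and 0.0408 in 87 WT libraries, 3.62, 1.401 and 2.05 in 67 CMD libraries and 0.493, 0.0266 and 0.106 in 67 WT libraries. The 67 CMD libraries were the highest of the 12, and the fitted difference was -5.08 ± 0.97 (SE, adjusted p = 0.0413), a value that rests on few reads in the other groups and was -2.83 without a sex term (unadjusted p = 0.0936). The 126 genes also held the major urinary protein genes Mup7, Mup11, Mup19 and Mup22. Mup22 (ENSMUSG00000110439) had 1.99, 1.76 and 3.71 CPM in 87 CMD libraries, 5.204, 0.986 and 1.88 in 87 WT libraries, 60.9, 46.4 and 15.7 in 67 CMD libraries and 0.156, 1.15 and 1.796 in 67 WT libraries. These genes are near-identical copies among which reads can be split, so their individual levels are uncertain and no fold is given.

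Genes whose CMD effect was higher in 87 were fewer in edgeR. The 6 that passed were Mrpl47, Rpl22l1, Slf1, Tmem65, Nop16 and Uqcrb, with a median difference of 1.03 (0.98 without library 16, at which none of the 6 passed, with adjusted p values up to 0.0987). Rpl22l1 and Nop16 were raised in 87 and lowered in 67, Tmem65 was raised in both, and the other 3 were raised in 87 and not called in 67. Uqcrb (ENSMUSG00000021520), a subunit of respiratory complex III, had 337, 276 and 291 CPM in 87 CMD libraries, against 158, 198 and 182 CPM in 87 WT libraries. It had 223, 226 and 214 CPM in 67 CMD libraries, against 184, 239.5 and 205 CPM in 67 WT libraries. The 87 CMD libraries were the highest of the 12, the 67 groups overlapped and the difference was 0.84 ± 0.17 (SE, adjusted p = 0.0495). Mrpl47 (ENSMUSG00000037531), a protein of the mitochondrial ribosome, had 29.1, 21.8 and 21.96 CPM in 87 CMD libraries, 10.3, 15.1 and 13.8 in 87 WT libraries, 18.01, 19.8 and 17.3 in 67 CMD libraries and 16.1, 17.2 and 18.4 in 67 WT libraries. It showed the same order, with a difference of 1.03 ± 0.19 (SE, adjusted p = 0.0365).

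Tmem65 (ENSMUSG00000062373), which encodes a mitochondrial membrane protein, had 299.96, 207 and 195 CPM in 87 CMD libraries, 58.05, 66.7 and 65.1 in 87 WT libraries, 152, 183 and 156 in 67 CMD libraries and 56.7, 84.3 and 87.2 in 67 WT libraries. CMD libraries were above WT libraries in both backgrounds, more so in 87, with a difference of 1.03 ± 0.20 (SE, adjusted p = 0.0413). Rpl22l1 (ENSMUSG00000039221), a paralogue of the ribosomal protein gene Rpl22, had 67.1, 43.4 and 50.3 CPM in 87 CMD libraries, 29.7, 38 and 32.6 in 87 WT libraries, 30.1, 20.7 and 26.4 in 67 CMD libraries and 45.3, 41.8 and 38.3 in 67 WT libraries. Both pairs were separate in opposite directions, with a difference of 1.51 ± 0.27 (SE, adjusted p = 0.0365), although ribosomal protein genes have processed copies with which reads can be shared. Nop16 (ENSMUSG00000025869), a nucleolar protein of ribosome assembly, and Slf1 (ENSMUSG00000021597), a factor that brings the SMC5/6 complex to DNA damage, differed by 0.92 ± 0.18 (SE, adjusted p = 0.0454) and 1.59 ± 0.30 (SE, adjusted p = 0.0387). The next genes in order of p, which missed the threshold, were Sucla2 (ENSMUSG00000022110), a subunit of succinyl-CoA ligase of the citric acid cycle, with 0.83 ± 0.17 (SE, adjusted p = 0.0514), and Magohb (ENSMUSG00000030188), a component of the exon junction complex, with 1.49 ± 0.31 (SE, adjusted p = 0.0543).

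Nuclear genes of oxidative phosphorylation rose in 87 CMD muscle as a list, and 4 of them did in 67. All 24 genes of the list were raised with CMD in 87 and none was lowered, whereas in 67, 4 were raised (Sdhb, Cox5b, Cox7a1 and Uqcrfs1). Of all tested genes, 10.5% were raised in 87 and 11.4% in 67. No gene of the list passed the threshold for the difference in edgeR's quasi-likelihood test, although all 24 differences were positive and 23 had an unadjusted p under 0.05, against 9.17% of all tested genes for positive differences. DESeq2 called 22 of the 24, all higher in 87, against 3.72% of all genes higher in 87 by that test. The median difference was 0.70 beside -0.01 over all genes, 0.81 without library 16 and 0.55 without a sex term. The summed level was 18605, 17138 and 16735 CPM in 87 CMD libraries, against 8448, 10778 and 10295 CPM in 87 WT libraries. It was 12152, 14659.9 and 13499.6 CPM in 67 CMD libraries, against 9961, 12022 and 10892 CPM in 67 WT libraries. CMD libraries were above WT libraries in both backgrounds, with a wider gap in 87. Ndufa9 (ENSMUSG00000000399), a subunit of complex I, had the smallest p of the list, with 329, 299 and 300.4 CPM in 87 CMD libraries, 146, 175 and 168 in 87 WT libraries, 221, 242 and 228 in 67 CMD libraries and 174, 204 and 186 in 67 WT libraries. Its difference was 0.75 ± 0.16 (SE, adjusted p = 0.0614).

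Lists for fatty acid use and for the cytosolic ribosome had the same sign. Of 18 genes of fatty acid use and its regulators, 16 rose in 87 and 6 in 67, with a median difference of 0.71, and 0 passed for the difference in edgeR or DESeq2. At an unadjusted p under 0.05 in edgeR, 7 were higher in 87 (9.17% of all tested genes), 1 without library 16 (7.79%) and 0 without a sex term (4.11%). Without library 16, 10 rose in 87 and 10 in 67, and the median difference was 0.57. Their summed level was 19253, 5219 and 7995 CPM in 87 CMD libraries, against 2886, 2567 and 3011 CPM in 87 WT libraries, with library 16 the highest of the 12. It was 3434, 5350 and 7349 CPM in 67 CMD libraries, against 1894, 2980 and 2287 CPM in 67 WT libraries. CMD libraries were above WT libraries in both backgrounds, and library 17 lay within the range of the 67 CMD libraries. Of 20 cytosolic ribosome genes, 15 rose in 87 (3 without library 16) and 1 in 67 (Rpl3), all 20 differences were positive with a median of 0.59, and 0 passed for the difference in edgeR against 7 in DESeq2 (in edgeR at an unadjusted p under 0.05, 15 with all libraries, 7 without library 16 and 0 without a sex term, beside 9.17%, 7.79% and 4.11% of all tested genes higher in 87). Rpl13 (ENSMUSG00000000740), a protein of the large subunit, had the smallest p of that list and a difference of 0.67 ± 0.19 (SE, adjusted p = 0.0979). Of 20 proteasome genes, all 20 differences were positive with a median of 0.76, but without library 16 the median was 0.13. With CMD 2 rose in 87 (0 without library 16) and 0 in 67, and 0 passed for the difference in edgeR or DESeq2. At an unadjusted p under 0.05 in edgeR, 12 were higher in 87, 1 without library 16 and 0 without a sex term. Among the 13 mitochondrially encoded genes, 3 rose in 87 (7 without library 16) and 0 in 67, and the median difference was 0.36 (0.86 without library 16). For the difference 0 passed in edgeR and 1 in DESeq2 (3.72% of all genes higher in 87). At an unadjusted p under 0.05 in edgeR, 1 was higher in 87, 7 without library 16 and 0 without a sex term. Their median was -0.19 in the libraries labelled female, where library 16 was the single 87 CMD library. Over all tested genes, 10.5% rose in 87 (5.76% without library 16). In 67, 11.4% rose (2110 of 14508 genes without library 16). These shares stand beside the counts of these lists.

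**Figure D4:**
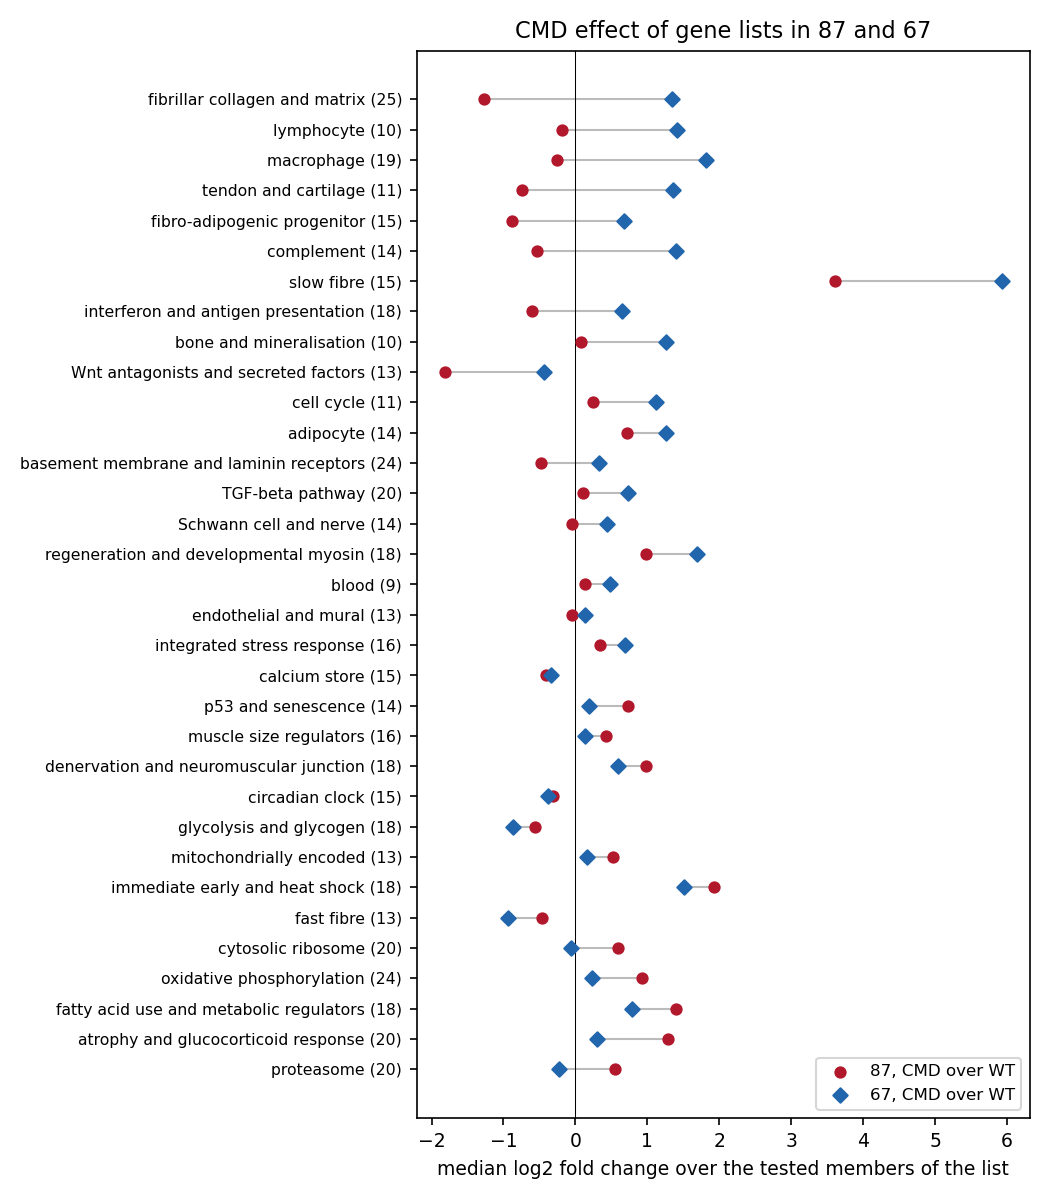
Median log2 fold change of CMD over WT in 87 (red circles) and 67 (blue diamonds) for each gene list, with the number of tested genes in brackets, ordered by the median difference. Fibrillar matrix, macrophage, progenitor and complement lists lay below or near zero in 87 and above zero in 67, and slow fibre genes were raised in both.

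Genes of the fibres themselves responded in both backgrounds. Of 15 slow fibre genes, 8 rose in 87 (10.5% of all tested genes) and 14 in 67 (11.4%), with median CMD effects of 3.61 and 5.93. For the difference 0 passed in edgeR, where 4 were lower in 87 at an unadjusted p under 0.05 (11.9% of all tested genes), against 3 lower in 87 in DESeq2 (5.73% of all genes). The median difference was -1.42, and -0.84 without library 16, where 2 were lower in 87 at an unadjusted p under 0.05 (8.48% of all tested genes). Atp2a2 (ENSMUSG00000029467), the slow-fibre calcium pump SERCA2, had the smallest p of that list, with 46.5, 75.1 and 62.3 CPM in 87 CMD libraries, 36.3, 26.9 and 25.3 in 87 WT libraries, 181, 91.1 and 124 in 67 CMD libraries and 34.2, 27.3 and 27.1 in 67 WT libraries. CMD libraries were above WT libraries in both backgrounds, and the difference was -1.42 ± 0.32 (SE, adjusted p = 0.0665). Myh7 (ENSMUSG00000053093), the slow myosin heavy chain, varied by library, with 0.181, 1.95 and 7.76 CPM in 87 CMD libraries and 167, 7.81 and 15.2 CPM in 67 CMD libraries. In the fast fibre list of 13 genes CMD lowered 4 and raised 2 in 87 (8.52% and 10.5% of all tested genes). It lowered 8 and raised 2 in 67 (7.31% and 11.4%), and the median difference was 0.47. Without library 16, 0 fell in 87 (3.89% of all tested genes) and 10 in 67 (1947 of 14508 genes). The median difference was then 0.72. The genes that rose were Myh1 (ENSMUSG00000056328), the fast type IIX myosin, with CMD effects of 4.63 ± 0.59 in 87 and 4.22 ± 0.57 in 67, and Myh2 (ENSMUSG00000033196), the fast type IIA myosin, with 6.74 ± 1.23 in 87 and 5.49 ± 1.05 in 67. Myh4 (ENSMUSG00000057003), the fast type IIB myosin, had CMD effects of -1.07 ± 0.32 in 87 and -1.99 ± 0.32 in 67, and Tnni2 (ENSMUSG00000031097), fast troponin I, -0.05 ± 0.16 in 87 and -0.83 ± 0.16 in 67. None of these 4 differences passed in edgeR. Of the 13 fast fibre genes 0 passed for the difference in edgeR, against 2 higher in 87 in DESeq2 (3.72% of all genes). At an unadjusted p under 0.05 in edgeR, 2 were higher in 87 (9.17% of all tested genes). Without library 16, 5 were (7.79%), and without a sex term 4 were (4.11%).

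Sln (ENSMUSG00000042045), encoding sarcolipin, the SERCA inhibitor, was among the most raised genes in both backgrounds. It had 209.8, 197 and 68.3 CPM in 87 CMD libraries, against 0.253, 0.1599 and 0.0204 CPM in 87 WT libraries, and 175, 113 and 244 CPM in 67 CMD libraries, against 0.597, 0.213 and 0.132 CPM in 67 WT libraries. Its difference was 0.89 ± 1.08 (SE, adjusted p = 0.6698), with a 95% interval of -1.50 to 3.27, and -0.94 without library 16. Myh3 (ENSMUSG00000020908), the embryonic myosin of regenerating fibres, rose in both, with CMD effects of 6.36 ± 0.91 in 87 and 8.34 ± 0.92 in 67. Its difference was -1.98 ± 1.48 (SE, adjusted p = 0.469), or 0.81 without library 16. Mstn (ENSMUSG00000026100), encoding myostatin, the inhibitor of muscle growth, fell in both, with CMD effects of -1.90 ± 0.30 in 87 and -3.02 ± 0.32 in 67 and a difference of 1.12 ± 0.43 (SE, adjusted p = 0.178). Gadd45a (ENSMUSG00000036390), a stress gene raised by denervation, rose by 2.90 ± 0.30 in 87 and 1.60 ± 0.28 in 67, and its difference was 1.30 ± 0.40 (SE, adjusted p = 0.118). Spp1 (ENSMUSG00000029304), osteopontin, rose by 2.52 ± 0.53 in 87 and 4.29 ± 0.56 in 67, and its difference was -1.77 ± 0.79 (SE, adjusted p = 0.231). A difference that missed the threshold does not show that the effects were equal.

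Several atrophy and stress genes were higher in library 16 than in the other 11 libraries. Trim63 (ENSMUSG00000028834), encoding the ubiquitin ligase MuRF1, had 3765, 208 and 288 CPM in 87 CMD libraries, against 195, 171 and 188 CPM in 87 WT libraries, and its difference of 2.99 ± 0.95 (SE, adjusted p = 0.127) became 0.64 without library 16. Mt1 (ENSMUSG00000031765), a metallothionein induced by metals and glucocorticoids, had 1164, 19.4 and 27.1 CPM in 87 CMD libraries, against 6.12, 4.56 and 4.1 CPM in 87 WT libraries, and 37.7, 29.8 and 90.01 CPM in 67 CMD libraries, against 4.73, 7.03 and 3.35 CPM in 67 WT libraries. Its difference of 2.92 ± 1.55 (SE, adjusted p = 0.305) became -1.29 without library 16, and that of Mt2 (ENSMUSG00000031762), 2.03 ± 1.65 (SE, adjusted p = 0.504), became -2.34. Pdk4 (ENSMUSG00000019577), the kinase that restrains pyruvate use, had 7559, 602 and 903 CPM in 87 CMD libraries, against 90.4, 113 and 366 CPM in 87 WT libraries. In 67 it had 431, 850.5 and 1051.5 CPM in CMD libraries, against 44.8, 268 and 128 CPM in WT libraries. Its difference was 2.10 ± 0.76 (SE, adjusted p = 0.159), or 1.22 without library 16. The summed level of the 20 atrophy and glucocorticoid genes was 11674, 1398 and 1350.4 CPM in 87 CMD libraries, and 982 to 2189 CPM over the other groups. The median difference of that list was 0.74 with library 16 and -0.19 without it. Library 16 was also the lowest of the 87 CMD libraries in 111 of the 126 genes (88.1%), against 44.3% of all tested genes. The 126 were called as lower in 87 in a fit that held library 16, so this share is not independent of that choice.

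**Figure D5:**
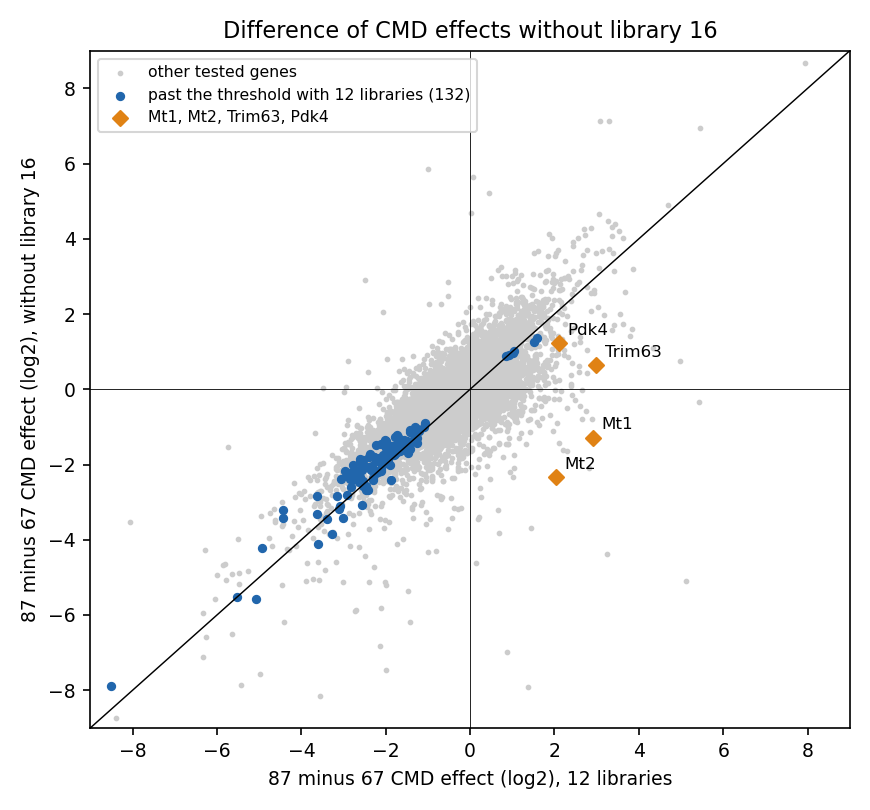
The 87 minus 67 difference in CMD effect (log2) with all 12 libraries (horizontal axis) and without library 16 (vertical axis) for each gene, with the diagonal marking equal values; 9 genes, 4 of them called, lie outside the axes. The 132 called genes (blue) kept their sign, whereas Mt1 and Mt2 (orange) were positive with library 16 and negative without it.

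Markers of other cell types and the sex of the mice were measured beside these results. Interferon and antigen presentation genes had 18 of 18 negative differences, a median of -1.17 and 0 calls in edgeR (9 at an unadjusted p under 0.05, beside 11.9% of all tested genes, and 3 calls in DESeq2). Without library 16 the median was -0.44 and 2 were lower in 87 at an unadjusted p under 0.05 (8.48% of all tested genes), and without a sex term 3 were (7.02%). Tendon and cartilage genes had a median of -1.88 and 0 calls in edgeR (5 lower in 87 at an unadjusted p under 0.05, beside 11.9% of all tested genes, and 2 calls in DESeq2). Without library 16 their median was -0.95 and 2 were lower in 87 at an unadjusted p under 0.05 (8.48% of all tested genes). Their summed level was 46.4, 147 and 250.5 CPM in 87 CMD libraries, 99.4, 206 and 137 CPM in 87 WT libraries, 742, 939 and 650.4 CPM in 67 CMD libraries and 167, 311 and 209 CPM in 67 WT libraries. Endothelial and mural markers had a median of -0.24, adipocyte markers -0.82 and blood markers -0.24, each with 0 calls in edgeR and each with a change of sign in some alternative fit. At an unadjusted p under 0.05 edgeR had 1, 0 and 1 of these markers lower in 87 in that order, beside 11.9% of all tested genes. DESeq2 called 1, 0 and 1 lower in 87, beside 5.73%. Without library 16 the medians were 0.03, -1.48 and -0.29. Lymphocyte markers had a median of -2.41 at summed levels of 2.79 to 13.9 CPM and 0 calls in edgeR (3 lower in 87 at an unadjusted p under 0.05, beside 11.9% of all tested genes, and 1 call in DESeq2). Their median was -1.17 without library 16 and -1.40 without a sex term. Their part in the called genes was not tested. Among the 126 genes the male libraries 13 and 7 were the highest of their WT groups in 102 and 106 (32.5% and 35.3% of all tested genes), and the sex coefficient was higher in males in 124 (48.9% of all tested genes). The 126 were called in the fit that held these libraries and the sex term, so these counts are not independent of that choice. As all 67 CMD mice were female, the sex term rests on the other 3 groups, and without library 16 on the WT groups alone. Within the 8 libraries labelled female the median difference of the 126 genes was -2.29, from an 87 CMD group that held library 16 as its single library. The spread of that group was assumed to equal that of the other groups.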

How the data were processed

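Left quadriceps RNA was extracted with TRIzol, made into stranded mRNA libraries and sequenced as paired reads of 58 bases, per the labels' protocols, and GRCm39 (mm39) is named in the submitters' processing notes. The aligner, the counter and whether counting used strand are not named in the sources used here, so overlapping antisense genes may share reads. For each Ensembl gene the authors deposited raw counts, as unique and as total exon reads, and the RPKM and TPM values deposited by the authors beside them were not used. Of the total exon reads, 98.0% to 98.2% per library were unique.

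Total exon reads of the 12 libraries, grouped by title, were filtered with filterByExpr (minimum count 10, minimum total count 15), which kept 14267 of 25369 listed genes, and fitted in edgeR 4.0.16 (R 4.3.3) with TMM, glmQLFit and glmQLFTest, with 4 groups and sex as labelled. Benjamini-Hochberg adjustment ran over all tested genes, with a threshold of 0.05. The SE is the log2 value divided by the square root of its F statistic. CPM are scaled by TMM-adjusted library sizes (TMM factors 0.897 to 1.16). Alternatives were DESeq2 1.42.0, RLE factors, no filter, unique reads, other sex terms, a log2 limit of 1, all 24 libraries and leaving out each library. Libraries were not paired, since replicate numbers differ between groups.

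The 34 gene lists and the samples were chosen with earlier results of these data known. Genes were named by rule: those called with and without library 16 at a mean log2 CPM of at least 1, or the 8 with the smallest p where under 5 qualified; the smallest p of each list; up to 6 called with opposite signs in the 2 backgrounds; and a fixed set (Lama2, its paralogues, Sln, myosins and others). The other named members of the matrix, progenitor, macrophage, complement and basement membrane lists, S100a4, S100a6 and the Mup genes were chosen after their values were seen, as were 2 alternatives that drop the sex term together with library 16 or 18.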

Additional observations from a re-analysis of the deposited data

Results flagged for a closer look

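The CMD effect differed between the backgrounds by the interaction test itself (edgeR, adjusted p under 0.05) in 132 genes. Values in brackets are log2 differences, the CMD effect in 87 minus that in 67, for the named genes among them. For microfibril, fibrillar and other interstitial matrix genes they were Fbn1 (-3.16), Mfap5 (-2.46), Col5a2 (-2.75), Col5a1 (-2.77), Col14a1 (-4.43), Fn1 (-4.43), Vcan (-2.92), Sparc (-1.92), Dcn (-1.43), Loxl1 (-2.92), Loxl2 (-2.79), Mmp2 (-2.07), Mmp14 (-1.79), Fbln7 (-2.97), Hmcn2 (-2.01) and Dpt (-2.88). For basement membrane genes they were Col18a1 (-2.82), Hspg2 (-1.78), Col4a1 (-1.69) and Col4a2 (-1.56). For other stromal genes and genes of fibres and adhesion they were Pdgfra (-1.32), Pi16 (-3.05), Gsn (-1.56), Sh3pxd2b (-2.46), Medag (-1.73), Axl (-1.76), Sfrp4 (-4.92), S100a4 (-2.56), S100a6 (-2.13), Shc2 (-3.28), Nos1 (-1.88) and Cdkn2a (-5.08). For macrophage and complement genes they were Ctsk (-2.31), Csf1r (-2.10), Adgre1 (-2.54), Lyz2 (-2.27), C1qa (-1.95), C1qb (-1.65), C1qc (-2.22), C3ar1 (-2.63) and Serping1 (-1.78). Positive differences were those of Mrpl47 (1.03), Rpl22l1 (1.51), Slf1 (1.59), Tmem65 (1.03), Nop16 (0.92) and Uqcrb (0.84). No value was tested for a library far from its group, since each group holds 3 libraries.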

How the results depend on the processing

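The number of genes called for the difference was 132 (4.55% higher in 87). It was 0 without a sex term, 306 (49 higher, 257 lower) with all 24 libraries and sex as labelled, 2707 (42.1% higher) in the libraries labelled female, where library 16 was the single 87 CMD library, 1269 (39.4% higher) in DESeq2, and 1 and 2 without a sex term and without library 16 or 18. Leaving out single libraries gave 0 (library 8) to 486 (library 18). The 2714 genes called in 87 became 4860 in that female fit, 1638 without a sex term and library 18, 1347 at a log2 change of at least 1, and 1334 to 3134 without single libraries. The 2665 called in 67 became 1499 at a log2 change of at least 1, and 1202 to 4057 without single libraries. The cause of these shifts was not tested, and fits without a library have fewer samples. RLE factors, no filter, unique reads, a log2 limit of 1 and all 24 libraries with sex from Y-linked reads kept the first count between 105 and 136. The 132 genes kept their sign in every alternative run (128 of them tested with unique reads). These runs reused libraries in which the 132 were chosen, so this is not an independent check. Among named genes that did not pass, the sign turned without library 16 for Mt1 (-1.29, over single libraries up to 5.09), Mt2 (-2.34, up to 4.33), Myh3 (0.81, down to -4.11) and Sln (-0.94, up to 1.81), and without the sex term and library 16 for Pdk4 (-0.40), Mt1 (-1.12) and Mt2 (-2.18). The difference turned negative for Myh1, which was -0.12 without a sex term, -0.43 also without library 16, and -0.14 (library 9) to 1.45 without single libraries. It also did for Myh2, which was -0.91 without a sex term, -0.89 in the female fit, -0.89 and -0.88 without a sex term and library 16 or 18, and -0.65 (library 9) to 2.76 without single libraries. No paired analysis was possible because no replicate number is shared between groups. With 3 libraries per group, 1 library decides many calls.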
